A study of Homo sapiens with 6 samples.

Results

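The 9 genes described here encode feedback brakes on growth factor signalling through the kinase ERK. They are the dual-specificity phosphatase genes DUSP1, DUSP4, DUSP5 and DUSP6, the Sprouty genes SPRY1, SPRY2 and SPRY4, and the Sprouty-related genes SPRED1 and SPRED2. They were chosen by name, as 9 of the 19775 genes that at least 1 probe set of the array measured alone, and all 20 probe sets that the array annotation gives to these genes alone were taken. RNA came from subcutaneous tumours of U87-EV, a line of the established human glioblastoma cell line U87 (the labels do not explain EV), grown in female BALB/c SCID mice, which lack mature T and B cells and were 6 to 8 weeks old at implantation. Control mice received saline and the others bevacizumab, an antibody against human vascular endothelial growth factor A (VEGF), injected intraperitoneally at 10 mg/kg once in 3 days. Dosing ran from a tumour volume of 150 to 200 mm3 to a diameter of roughly 15 to 30 mm. Each group has 3 arrays, labelled replicates 1 to 3, from cohorts that began with 5 mice. The labels do not tie each array to a separate mouse, so the p-values cover only array-to-array spread, part of which may be technical.

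ERK is the last kinase of a cascade that runs from activated receptors through RAS, RAF and MEK. When ERK is active it raises transcription of its own inhibitors, so the RNA of these genes is widely read as a sign of ERK output, although stress and other signals raise some of them too. Dual-specificity phosphatases switch off ERK and its relatives p38 and JNK by removing phosphate from threonine and tyrosine. Sprouty and SPRED proteins act further up, between the receptor and RAF, and SPRED proteins bring the RAS inactivator neurofibromin to the membrane.

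Promoter windows are shown for DUSP1, which passed the test, and for SPRY2, the member with the largest decrease in mean level. Both come from RefSeq (GRCh38.p14), run 5′ to 3′ on the strand of the gene from 250 bases before the transcription start to 50 after it, and have motif matches in capitals. The DUSP1 window is chr5:172771146-172771445 on the minus strand, and that of SPRY2, the outermost of its 3 annotated starts, is chr13:80341077-80341376 on the minus strand.
DUSP1: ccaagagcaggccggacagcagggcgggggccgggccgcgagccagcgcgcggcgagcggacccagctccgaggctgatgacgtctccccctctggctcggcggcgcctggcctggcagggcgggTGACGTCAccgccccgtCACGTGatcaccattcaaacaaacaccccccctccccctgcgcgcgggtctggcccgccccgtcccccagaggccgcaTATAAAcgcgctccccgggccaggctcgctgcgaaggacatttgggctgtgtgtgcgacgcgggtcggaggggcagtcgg
SPRY2: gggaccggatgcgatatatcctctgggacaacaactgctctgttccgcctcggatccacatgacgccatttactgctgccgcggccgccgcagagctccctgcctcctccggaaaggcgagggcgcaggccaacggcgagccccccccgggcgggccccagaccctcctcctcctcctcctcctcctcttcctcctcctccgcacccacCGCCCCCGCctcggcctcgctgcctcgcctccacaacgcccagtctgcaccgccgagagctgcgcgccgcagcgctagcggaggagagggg
The capitals in DUSP1 mark a cyclic AMP response element (TGACGTCA, starting at position -125), an E-box (CACGTG, at -108) and a TATA box (TATAAA, at -30). The capitals in SPRY2 mark a match to the element of the EGR factors on the opposite strand (at -41). The cyclic AMP response element was found in 1.85% of all 35116 windows of that length, the E-box in 7.26%, the TATA box in 11.5% and the EGR element (GCGTGGGCG or GCGGGGGCG) in 5.77%, searching both strands. RefSeq windows matched 7 members, with 11 windows in all, and DUSP4 and DUSP5 had none in the table used. Of the 11, the cyclic AMP response element and the E-box were each in 1 (DUSP1). The TATA box was in 2 (DUSP1 and SPRED2), as was the EGR element (SPRY1 and SPRY2). The other SPRY2 windows held none of the motifs searched. The other letters searched were the AP-1 element (TGANTCA), found in 1 of the 11 windows (SPRED2) and in 7.71% of all, and the ETS element (CCGGAAG), found in 1 of the 11 (SPRY1) and in 10.3% of all. A match is a description of these letters and was not tested as a binding site.

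Of the 9 genes, DUSP1 rose after bevacizumab and the other 8 did not pass the test. Mean levels of DUSP1, DUSP4 and DUSP5 were higher by 0.76 to 1.00 on the log2 scale, those of SPRY2 and SPRY4 were lower by 0.61 and 0.23, and DUSP6, SPRY1, SPRED1 and SPRED2 differed by 0.13 or less. All 9 genes were bright enough to test, with a mean of at least 4 in deposited GCRMA values, which are on a log2 scale. Groups were compared by limma, a linear model with moderated variances, over 10233 genes, with the Benjamini-Hochberg adjustment and an adjusted p under 0.05 as the threshold. The fit called 19.1% of all genes tested, 9.09% as higher and 9.97% as lower, so 1 call among 9 members is no larger a share than among all genes. At an unadjusted p under 0.05, 2 members were higher (DUSP1 and DUSP5) and 1 lower (SPRY2), against 35.8% of all genes tested. The groups did not overlap in 4 members, 2 in each direction, against 41% of all genes tested. The median log2 fold change was 0.12 over the 9 members and -0.01 over all genes tested. In bulk tumour RNA, a change in the number of cells of a type and a change in RNA per cell cannot be told apart.

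**Figure D1:**
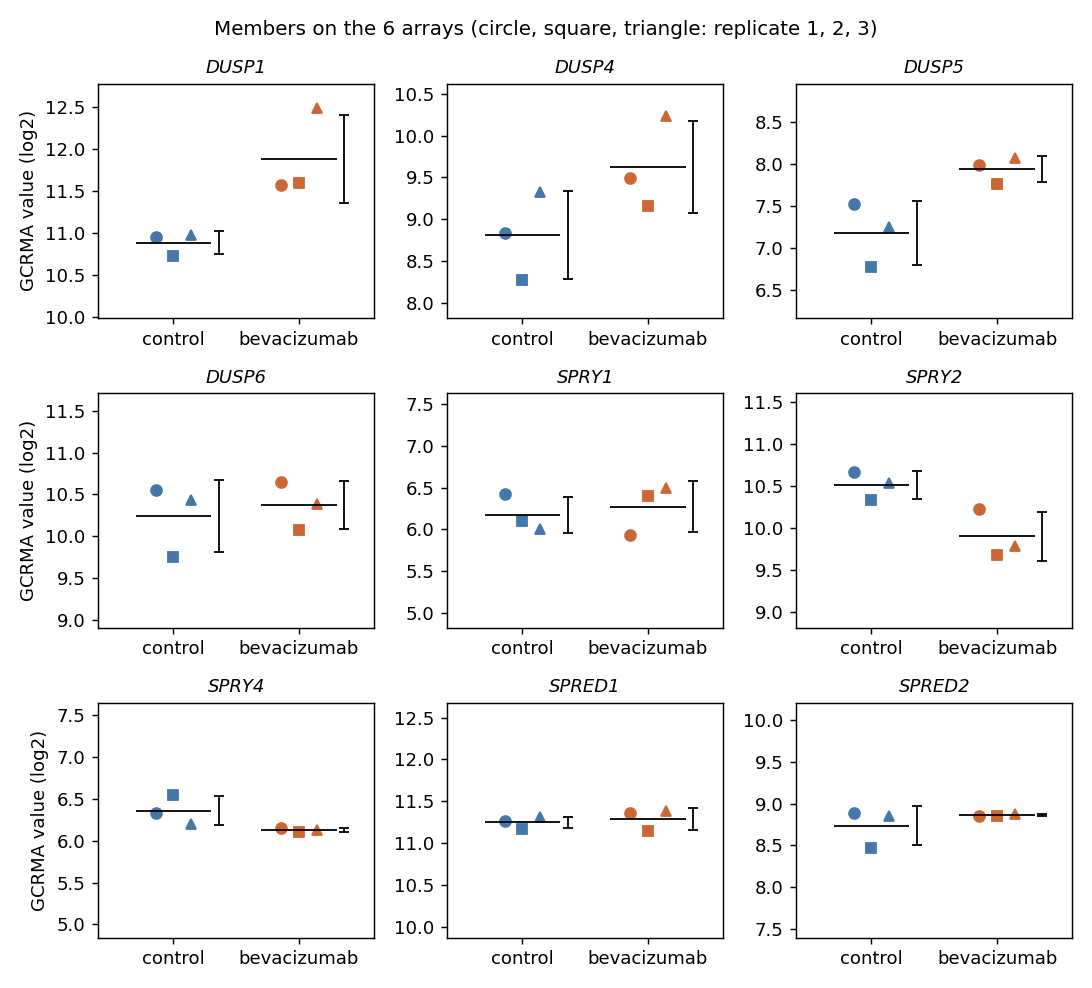
GCRMA values (log2, vertical axes, all spanning the same width) of the 9 members on the 3 control and 3 bevacizumab arrays; points are arrays, horizontal lines group means and bars 1 SD. The groups are separate for DUSP1 and DUSP5 (bevacizumab higher) and for SPRY2 and SPRY4 (bevacizumab lower), and overlap for the other 5.

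DUSP1 is the archetypal stress- and growth factor-induced phosphatase, acting in the nucleus on p38, JNK and ERK. Its log2 values were 10.95, 10.72 and 10.97 on control arrays 1 to 3 and 11.57, 11.59 and 12.49 on bevacizumab arrays 1 to 3. Every bevacizumab array lay above every control, and bevacizumab 3 stood 0.91 above the mean of the other two. Group means were 10.88 ± 0.14 and 11.88 ± 0.53 (SD, n = 3 each). The log2 fold change was 1.00 (95% interval 0.36 to 1.64, SE 0.26, limma adjusted p = 0.0462), or 2.00-fold. The call was narrow: it was lost without control 1 (adjusted p = 0.124), control 2 (0.144), control 3 (0.108) or bevacizumab 2 (0.0730), and held without bevacizumab 1 (0.0481) or bevacizumab 3 (0.0258), with a log2 fold change of 0.70 in the latter fit. It was also lost with no filter on dim genes (0.198) and when the gene's 3 probe sets were averaged (log2 fold change 0.44, adjusted p = 0.104). The second DUSP1 probe set, of the x_at type whose probes can also match other transcripts, read 6.95, 6.75 and 6.96 in controls and 7.03, 6.94 and 7.67 after bevacizumab. Its groups overlapped, and its difference was 0.33 (95% interval -0.19 to 0.85). The third read 2.74 on all 6 arrays and was under the filter.

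DUSP5, a nuclear phosphatase specific for ERK, has 1 probe set. Control values were 7.52, 6.77 and 7.25, and bevacizumab values 7.99, 7.76 and 8.07. All bevacizumab arrays were above all controls, with the closest pair, control 1 and bevacizumab 2, 0.24 apart. The log2 difference was 0.76 (SE 0.21, 95% interval 0.26 to 1.26, limma adjusted p = 0.0507), just short of the threshold. It passed under 4 of the 15 other settings, among them a filter at a mean of 6 (adjusted p = 0.0344) and quantile normalization (0.0407), and in none of the 6 fits on 5 arrays (0.0595 to 0.124).

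DUSP4, a nuclear phosphatase that is itself an ERK-induced gene, had the widest spread of the 9. Controls read 8.84, 8.28 and 9.32 and bevacizumab arrays 9.50, 9.15 and 10.23 on its brightest probe set. Control 3 was above bevacizumab 2, so the groups overlapped. The difference of 0.82 (SE 0.36, 95% interval -0.06 to 1.69) did not pass (limma adjusted p = 0.162), and it was 0.51 without bevacizumab 3. The within-group SD was 0.54, against a median of 0.18 over all genes tested. The other 2 probe sets gave differences of 0.90 and 0.40, also with overlapping groups, and bevacizumab 3 was the highest array on each of the 3.

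DUSP6, the cytoplasmic phosphatase specific for ERK and among the transcripts most used to read ERK activity, had like means in both groups. Controls read 10.55, 9.75 and 10.43 and bevacizumab arrays 10.65, 10.07 and 10.39. Replicate 2 was the lowest array of each group, as it also was for DUSP4, DUSP5, SPRY2 and SPRED1. The DUSP6 groups overlapped over most of their range. The difference was 0.12 (95% interval -0.49 to 0.73, limma adjusted p = 0.750), so a change of up to 0.73 upward or 0.49 downward lies within the interval. Its other 2 probe sets differed by -0.024 and -0.15. The sign of the DUSP6 estimate turned without control 2 (-0.12) or bevacizumab 1 (-0.014).

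**Figure D2:**
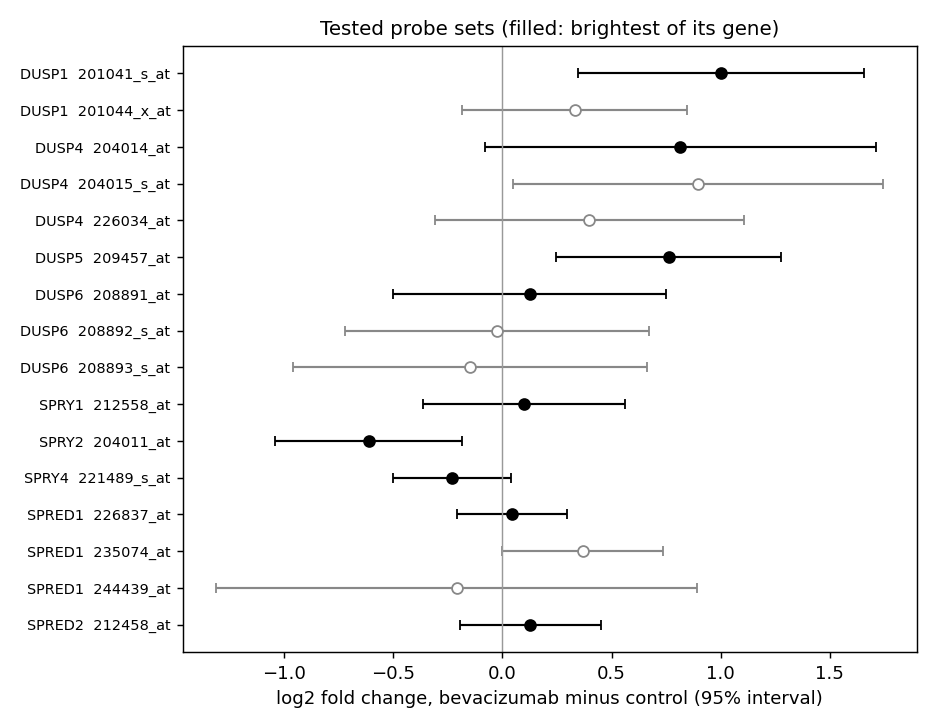
Log2 fold change (bevacizumab minus control, horizontal axis) of the 16 member probe sets bright enough to test, with 95% limma intervals from the fit over all probe sets; filled points are the brightest probe set of a gene. The intervals of 4 probe sets exclude 0, for DUSP1, DUSP4, DUSP5 and SPRY2, and none of these passed after adjustment over 18469 probe sets.

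A fit over all 18469 single-gene probe sets with a mean of at least 4, of which 15.4% were called, tested 16 of the 20 member probe sets and called 0 (limma, adjusted p under 0.05). At an unadjusted p under 0.05, 3 were higher and 1 lower, against 33.4% of all probe sets tested. The smallest adjusted values were 0.0564 for DUSP1, 0.0618 for DUSP5 and 0.0673 for SPRY2. The 4 probe sets under the filter were 1 each of DUSP1 and SPRY1 and 2 of SPRED2, with no value above 3.22 on any array.

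Among the Sprouty genes, which block signalling between receptor and RAF, SPRY2 read 10.66, 10.33 and 10.54 in controls and 10.23, 9.68 and 9.79 after bevacizumab. The groups did not overlap, although control 2 and bevacizumab 1 were only 0.10 apart. The difference of -0.61 (SE 0.17, 95% interval -1.03 to -0.19) did not pass (limma adjusted p = 0.0558). It passed under 5 of 15 other settings, among them the filter at 6 (0.0401), quantile normalization (0.0370) and the fit without bevacizumab 1 (0.0207, log2 fold change -0.78). SPRY4 read 6.33, 6.54 and 6.20 in controls and 6.15, 6.11 and 6.12 after bevacizumab. The bevacizumab arrays agreed closely (SD 0.023) and lay just under the lowest control. That difference was -0.23 (95% interval -0.50 to 0.033, adjusted p = 0.183). SPRY1 read 6.42, 6.10 and 6.00 against 5.93, 6.40 and 6.49, with overlapping groups, a difference of 0.099 (95% interval -0.35 to 0.55) and an adjusted p of 0.731.

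Neither SPRED gene passed the test. SPRED1 read 11.26, 11.17 and 11.31 in controls and 11.35, 11.14 and 11.38 after bevacizumab, a difference of 0.043 (95% interval -0.20 to 0.29, limma adjusted p = 0.785). Its other probe sets gave 0.37 (adjusted p = 0.150 over all probe sets) and -0.21, the last with controls from 5.64 to 7.45. SPRED2 read 8.89, 8.47 and 8.85 against 8.85, 8.86 and 8.88. Control 2 stood apart on that gene, and the difference was 0.13 (95% interval -0.19 to 0.44, adjusted p = 0.518).

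**Figure D3:**
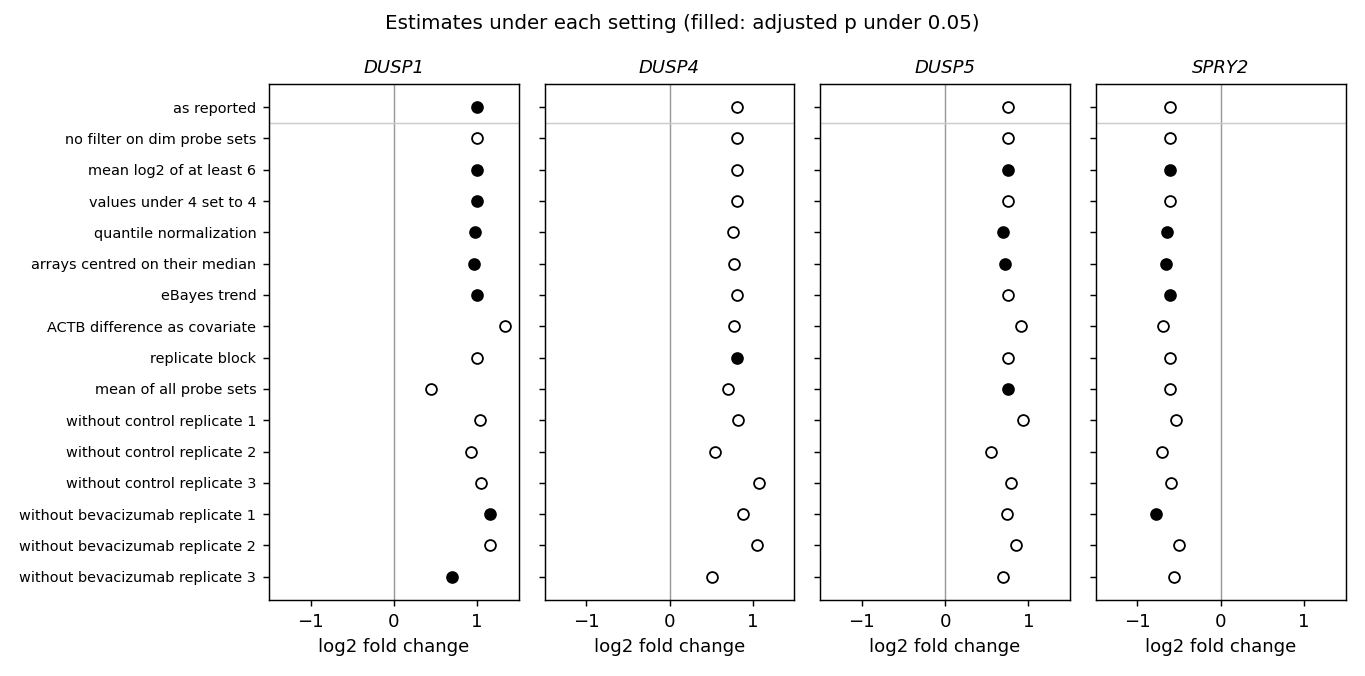
Log2 fold change (bevacizumab minus control, horizontal axes) of DUSP1, DUSP4, DUSP5 and SPRY2 as reported and under 15 other settings (rows); filled points have an adjusted p under 0.05. Each gene keeps its direction under all settings drawn, while DUSP1 is filled in 7 of the 15, DUSP5 in 4, SPRY2 in 5 and DUSP4 in 1.

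The genes whose course over the 6 arrays was closest to that of DUSP1, by root mean square difference after removal of each gene's own mean, were GTPBP2, a GTP-binding protein gene (0.078 on the log2 scale), and CYP1B1, a cytochrome P450 gene (0.082). GTPBP2 was 6.27, 6.23 and 6.41 in controls and 6.91, 6.86 and 7.87 after bevacizumab. CYP1B1 was 10.23, 10.02 and 10.14 and then 10.90, 10.70 and 11.66. Bevacizumab 3 was the highest array on both, as on DUSP1, which follows from picking them for closeness to DUSP1. CYP1B1 passed the test (limma adjusted p = 0.0467) and GTPBP2 did not (0.0703).

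Among the other MAP kinase phosphatases and Sprouty relatives, DUSP3 and DUSP16 rose and none fell among 7 tested of 11 (limma, 2 at an unadjusted p under 0.05; median 0.13). The same fit called 19.1% of all genes tested and gave 35.8% an unadjusted p under 0.05. DUSP3, a small phosphatase that acts on ERK and JNK, read 8.83, 8.95 and 9.12 in controls and 9.97, 10.48 and 10.48 after bevacizumab. Its groups were well apart, with a log2 difference of 1.35 (SE 0.17, limma adjusted p = 0.00698), larger than that of any of the 9 members, and the call held whichever of the 6 arrays was dropped. DUSP16, which acts on JNK and p38, lay close to the filter in controls (3.70, 4.01 and 4.23) and read 4.75, 5.31 and 5.29 after bevacizumab. Its control mean of 3.98 was under the filter, which DUSP16 passed only through its bevacizumab arrays. It rose by 1.04 with values under 4 set to 4 (adjusted p = 0.0139) and by 1.14 as deposited (0.0168), the latter call being lost without control 1 (0.0628), control 2 (0.0647) or bevacizumab 2 (0.0578). DUSP7 differed by -0.17 (adjusted p = 0.231) and DUSP14 by 0.13 (0.426).

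Of the 19 listed genes of the RAS-ERK cascade itself 13 were tested, of which 1 rose and none fell (limma, 4 at an unadjusted p under 0.05; median 0.13). MAP2K1, which encodes the ERK-activating kinase MEK1, rose by 0.77 (SE 0.10, limma adjusted p = 0.00780), from 9.31 ± 0.12 to 10.08 ± 0.093 (SD, n = 3 each), and passed whichever of the 6 arrays was dropped. The exchange factor gene SOS1 differed by 0.50 (adjusted p = 0.0704), the adaptor gene SHC1 by 0.28 (0.108) and MAP2K2 by 0.39 (0.116). Among 12 other brakes on RAS and receptors, 3 of 7 tested rose and none fell (limma, 4 at an unadjusted p under 0.05; median 0.59). For both lists, the shares over all genes tested were 19.1% called and 35.8% at an unadjusted p under 0.05, with a median of -0.01. LRIG1, a membrane protein that promotes breakdown of EGF receptors, rose by 1.29 (adjusted p = 0.00749) and passed whichever array was dropped. The ubiquitin ligase gene CBLB rose by 0.79 (0.0133), a call lost without control 1 (0.0607) or control 2 (0.0577). RASA2, a RAS inactivator gene, rose by 0.59 (0.0246), a call lost without control 1 (0.0882), control 2 (0.0883) or bevacizumab 2 (0.0696). ERRFI1, a feedback inhibitor of EGF receptors, differed by 0.59 (0.102).

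Transcripts that follow ERK output in many cells moved in both directions, with 2 of 12 tested (14 listed) higher and 1 lower (limma; 2 higher and 4 lower at an unadjusted p under 0.05; median -0.26). Of all genes tested, 9.09% were called higher and 9.97% lower, and 35.8% had an unadjusted p under 0.05. IER3, an early gene also induced by stress, rose by 2.67 (SE 0.38, limma adjusted p = 0.00920), from 9.52 ± 0.40 to 12.18 ± 0.69 (SD, n = 3 each). IER2, another early gene, fell by 0.73 (adjusted p = 0.0114), a call lost without control 1 (0.0510). The ephrin receptor gene EPHA4 was under 4 on every control and passed the filter only through its bevacizumab arrays. Its bevacizumab mean was 2.06-fold above a level of 4, a bound on the means that rests mainly on bevacizumab 1 and 2. Its bevacizumab arrays read 5.58, 5.47 and 4.08. The EPHA4 call (adjusted p = 0.0352) was lost with values under 4 set to 4 (0.117) and without any array other than bevacizumab 3 (0.0759 to 0.117). PHLDA1 differed by -0.42 (0.0539), and passed without bevacizumab 1 (0.0245).

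Of kinases and transcription factors that ERK regulates, 3 of 11 tested (13 listed) rose and 1 fell (limma, 4 at an unadjusted p under 0.05; median 0.19). Over all genes tested, 19.1% were called and 35.8% had an unadjusted p under 0.05. SRF, which drives early genes together with ETS-type partners, fell from 7.58 ± 0.082 to 6.93 ± 0.025 (SD, n = 3 each; log2 fold change -0.65, SE 0.083, limma adjusted p = 0.00714), and passed with any of the 6 arrays dropped. The kinase genes RPS6KA2 and RPS6KA5 rose by 1.47 (adjusted p = 0.0216) and 1.33 (0.0242), and the transcription factor gene ETS1 by 0.89 (0.0403). RPS6KA2 fell short in the fits without each control and without bevacizumab 2 (0.0580 to 0.0696). RPS6KA5 did so without control 1 and without each bevacizumab array (0.0553 to 0.0744), and ETS1 without each control and without bevacizumab 1 (0.0656 to 0.131). In the JNK and p38 cascades 0 of 10 tested (15 listed) passed limma, with 2 at an unadjusted p under 0.05 (median -0.09). The smallest adjusted values there were 0.0850 for MAP3K7 (difference 0.47) and 0.119 for MAP2K6 (-0.58), both kinases upstream of p38 or JNK, with MAPKAPK2 (0.49, 0.208) and MAPKAPK3 (-0.25, 0.327), kinases downstream of p38, next. With no filter on dim genes DUSP3, MAP2K1, LRIG1, IER2 and SRF still passed, and the other 8 list genes called here did not (adjusted p = 0.0619 to 0.174). With all probe sets of a gene averaged, the differences were 0.77 for DUSP3, 0.32 for LRIG1, 0.67 for RPS6KA5, -0.33 for SRF and 0.41 for ETS1, of which ETS1 lost its call. The averages of DUSP16 and EPHA4 were under the filter, so neither was tested there. The lists were chosen with earlier results of these data known, and their counts are given as descriptions.

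**Figure D4:**
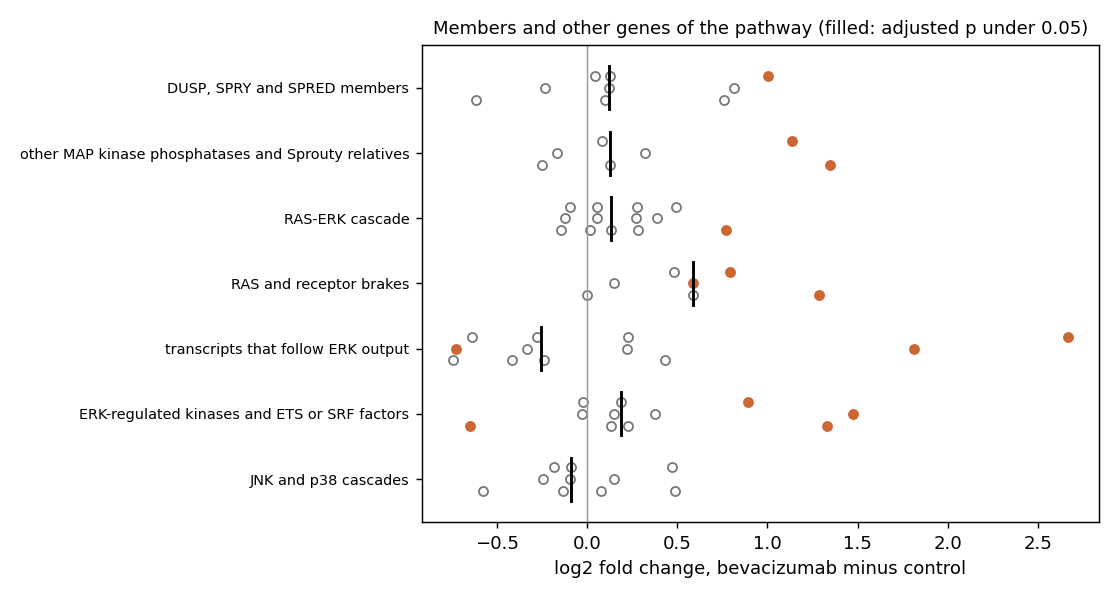
Log2 fold change (bevacizumab minus control, horizontal axis) of the members and of the tested genes of 6 other pathway lists (rows); each point is a gene, filled where its adjusted p is under 0.05, and black bars are list medians, from -0.26 to 0.59. EPHA4 is drawn at its deposited difference of 1.81, although its controls were under 4, and every list holds genes on both sides of 0.

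The 5 transcripts listed for U87 and mesenchymal glioma cells, VIM, CD44, NES, CHI3L1 and TNC, were all above 9 on average in both groups. The log2 of their summed level spanned 15.98 to 16.01 on controls and 16.15 to 16.22 on bevacizumab arrays. That is close to the fibroblast list below, so these levels alone do not name the cell type. Of these 5, NES fell by 1.18 (limma adjusted p = 0.00725), CHI3L1 rose from a mean log2 level of 11.03 to 12.63 (0.0174) and the other 3 did not pass. Of the glial lineage markers, GFAP, OLIG2, S100B and SOX10 were under 4 on every array, and SOX2 reached 4 on bevacizumab 1 alone. For this and the following marker lists, the shares over all genes tested were 19.1% called, 9.97% called lower and 35.8% at an unadjusted p under 0.05. Among mural cell markers 2 of 6 fell, RGS5 and ACTA2, with log2 fold changes of -2.85 and -1.79. The other 4 did not pass, with differences of 0.30 for PDGFRB, 0.16 for CSPG4, 0.42 for MCAM and -0.51 for NOTCH3. MCAM read 5.82, 5.50 and 5.82 in controls and 5.41, 5.23 and 7.75 after bevacizumab. Its higher mean thus came from bevacizumab 3 alone. NOTCH3 read 8.22, 8.42 and 7.90 and then 6.90, 7.52 and 8.57, with bevacizumab 3 again the highest. The log2 of the mural list's summed level spanned 13.06 to 13.40 on controls and 11.80 to 12.04 on bevacizumab arrays. That sum mostly repeats ACTA2, the brightest of the list (means 12.76 and 10.97). The endothelial sum spanned 7.28 to 7.39 and 7.33 to 7.59, with 6 of 8 markers, CDH5, VWF and KDR among them, under 4 on every array. The macrophage sum spanned 5.95 to 6.12 and 5.90 to 5.95, with 5 of 6 under 4 throughout. All 6 fibroblast markers were measured and none passed (limma, 1 at an unadjusted p under 0.05), with sums of 16.00 to 16.11 and 15.98 to 16.23. Host cells in these tumours were mouse and the array human, so mural, endothelial, macrophage and fibroblast values cannot count host cells. Control probe sets at the 3' and 5' ends of ACTB, a sign of RNA quality, differed on the log2 scale by 1.38 ± 0.26 on control and 1.81 ± 0.16 on bevacizumab arrays (SD, n = 3 each; two-sided exact permutation p = 0.2). That of GAPDH averaged -0.12 ± 0.017 and -0.021 ± 0.034 (exact permutation p = 0.1, as small as 3 against 3 arrays can give). In a fit that held the ACTB difference as covariate 24 genes passed, none of them a member or a gene of the 6 pathway lists, and DUSP1 had an estimate of 1.34 (adjusted p = 0.136). The part of the mural markers in the members' results was not tested. Array profiles correlated at 0.992 to 0.997 within groups and 0.986 to 0.993 between them (Pearson, over 54675 probe sets).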

How the data were processed

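Tumour RNA was measured on 6 single-colour Affymetrix human arrays. The authors deposited log2 expression values made with GCRMA, which corrects background, normalizes between arrays and summarises probe sets; GCRMA (no version) and GCOS 1.1.1.052 are named per the submitters' processing notes. The log2 scale was inferred from the range (2.23 to 15.99), and no scanner files were used here. Values lie at the table's lowest value for 33.3% to 34.3% of probe sets per array. The number of arrays limits the precision, and no batch information was given in the sources used here.

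The platform annotation gave 41097 of 54675 probe sets 1 gene symbol, and 41043 were renamed or kept through gene identifiers of RefSeq. The brightest probe set stood for each gene. The 2 groups were tested by lmFit and eBayes of limma 3.58.1 (R 4.3.3) with no covariate, on genes with a mean of at least 4. A check on simulated data ran first, with variances moderated without that filter. It required recovery of log2 changes of 4 and a limit on false calls. It set no requirement at the smaller changes seen in the members. A second fit used all probe sets. The text names all 9 members, up to 4 genes of each pathway list with the smallest p, and the 2 closest profiles of each member past the threshold. Markers outside this rule were named after their values were seen. Members, lists, motifs and settings were chosen with earlier results of these data known. The 15 other settings changed the filter, low values, normalization, variance model, covariate, block, probe set summary or arrays. Mouse RNA was not separated from tumour RNA. No per-sample column was left unused. Over all genes tested, same-numbered arrays of the 2 groups did not deviate together (correlations of deviations -0.048, -0.012 and -0.053). The numbers were therefore not taken as pairs, although replicate 2 was lowest in both groups for DUSP4, DUSP5, DUSP6, SPRY2 and SPRED1. Differently numbered arrays gave correlations from -0.21 (control 2 with bevacizumab 1) to 0.23 (control 3 with bevacizumab 1), and the source of these was not tested.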

Additional observations from a re-analysis of the deposited data

How the results depend on the processing

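Over the 15 other settings, DUSP1, DUSP4, DUSP5, SPRY2 and SPRY4 kept their direction. The count of genes past the threshold (1950) was 598 with no filter on dim probe sets, 24 with the ACTB difference as covariate and 904 with the replicate block, and 558 to 2074 without 1 array. The count of members past it (1) was 0 with no filter and with the ACTB covariate, 2 with the eBayes trend, 3 with a filter at 6, with quantile normalization and with centred arrays, and 0 to 2 without 1 array. Members higher (1) numbered 0 with no filter and the covariate, 2 with a filter at 6, quantile normalization and centring, and 0 to 1 without 1 array. Members lower (0) numbered 1 with a filter at 6, quantile normalization, centring and the trend, and 0 to 1 without 1 array. Member probe sets (0) numbered 3 with a filter at 6, quantile normalization and centring, 1 with the trend and the replicate block, and 0 to 1 without 1 array. The cause of these moves was not tested. The arrays share only a replicate number; with the replicate block DUSP4 passed (adjusted p = 0.0300) and DUSP1 did not (0.0567).

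Signs turned only for estimates that were not called. DUSP6 was -0.016 with its probe sets averaged and -0.12 (without control 2) to 0.28 without 1 array. SPRY1 was -0.00052 with averaging and -0.011 (without bevacizumab 3) to 0.27 without 1 array. Its largest estimate was 0.51, with the ACTB covariate (limma adjusted p = 0.221). Ranges without 1 array were -0.0016 to 0.12 for SPRED1, -0.0062 to 0.20 for SPRED2, -0.29 to 0.19 for the second DUSP6 probe set, -0.45 to 0.081 for the third and -0.73 to 0.17 for the dimmest SPRED1 probe set. With the ACTB covariate the second DUSP6 probe set was 0.074 and DUSP14 -0.021. The cause was not tested. Array number and signal over background limit all these values, and the 4 probe sets under the filter carry no information on a change.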
